A study of Arabidopsis thaliana with 12 samples.

Results

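The 60 most abundant named transcripts of an Arabidopsis array data set were described in plants of an aap6 mutant and in wild type. Members were chosen by signal. Among 692 probes whose platform annotation gave exactly 1 gene (691 genes), the mean of the 12 deposited values was taken, 1 probe was kept per gene, 13 genes, most of them of photosynthesis and metabolism, were left out by name, and the 60 genes with the highest mean were kept. Of the 13 names, 7 had a higher mean than the last gene kept. The last genes inside were AT5G42680, AT4G09620 and AT3G51500, with mean signals of 1.11, 1.1 and 1.06. The first outside were AT3G61870, AT5G46560 and ATSIK, with 1.06, 1.05 and 1.05. These means chose the genes, so levels and ranks are given as a description without a test. The mean covers both genotypes, so a gene high in only 1 of them could enter through that genotype.

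The tested plants were an aap6 mutant of the ecotype Wassilevskija, 6 arrays, and the plants set against them were WT of the same ecotype, also 6 arrays. Total RNA was hybridised. The labels give the mutant as lacking AAP6. Its allele, the number of lines, the plants' age and growth, the tissue and the kind of array are not stated in those labels. The question named in the labels is how the mutant differs from WT.

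AAP6 is an amino acid permease, a membrane protein that moves amino acids into cells, and the labels place it in the parenchyma around the xylem, the vessels that carry water and solutes up from the root. The amount of a transcript in a tissue reflects how fast it is made and how fast it decays, and abundant transcripts commonly encode proteins needed in many cells at once, such as metabolic enzymes and organelle proteins. An array reads each transcript through its own probe, so the order of signals is an order of probes and only roughly one of transcript number. No level is set against another per length here. With bulk RNA, fewer cells of a type and less RNA per cell cannot be told apart.

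Signals were linear, without a stated unit, and ended at about 100. Array medians ran from 0.234 to 0.265 in aap6 and from 0.142 to 0.164 in WT, and 236 to 320 probes of 3439 per aap6 array and 334 to 550 per WT array were listed at 0. Arrays 1 and 2, 3 and 4, and 5 and 6 of a genotype correlated at 0.993 to 0.998 across probes, against 0.955 to 0.980 for other arrays of a genotype. Each pair was therefore averaged and counted as 1 sample, which gave n = 3 per genotype. No label ties the numbered samples to separate plants. All p-values therefore rest on the spread among these samples alone, and that spread may be technical. The number of arrays limits the precision. AAP6 had no named probe, and of 38 markers of green tissue, root, vascular tissue, seed and flower none had a probe of its own, so neither the genotype nor the tissue could be checked from defining transcripts.

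The name "most abundant" holds among named genes only. Of the 50 brightest probes of the array, 42 carried no name or several names, and 5 belonged to the 60 genes. Among all 3439 probes the 60 genes ranked from 4 to 409 by mean signal. They held 9.53% to 9.75% of the summed signal of an aap6 array and 9.71% to 11.5% of that of a WT array. None of them was listed at 0 in any array.

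Signal within the 60 genes was uneven, with a 75.2-fold range of mean signal and a median of 2.1. The brightest probe was that of AT3G09850, which encodes a protein with a G-patch domain, a short motif of RNA-processing factors. Its averaged samples gave 68.3, 70.2 and 77.4 in aap6, against 99.9, 85.6 and 77.6 in WT. In WT array 2 it reached the upper bound of the scale, so its WT signal may be understated. AT2G27290 came next with 48.4, 49.6 and 45.5 in aap6, against 52.5, 49.3 and 38.0 in WT. These values overlap between the genotypes for AT2G27290, and for AT3G09850 the third aap6 sample lies just under the lowest WT sample.

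Below these, AT4G17070, a peptidyl-prolyl isomerase that helps proteins fold, had 27.9, 27.2 and 14.7 in aap6, against 25.3, 23.2 and 15.1 in WT. The third sample was the lowest in each genotype. AT4G31530, a Rossmann-fold protein that binds NAD(P), had 17.4, 20.1 and 14.2 in aap6, against 19.4, 24.5 and 14.6 in WT. CCL, a light-regulated gene whose mRNA is known for decay under circadian control, had 13.5, 12.7 and 10.7 in aap6, against 17.6, 20.6 and 13.7 in WT. The highest aap6 sample of CCL stood below the lowest WT sample on this scale. Only these 5 of the 60 genes had a mean above 10.

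AT1G62250 followed, with means of 8.45 ± 0.34 in aap6 and 7.69 ± 0.97 in WT (SD, n = 3 each). CUTA, a relative of the bacterial copper tolerance protein CutA, had means of 7.43 ± 0.37 in aap6 and 6.06 ± 1.21 in WT. AT3G13150, a pentatricopeptide repeat protein of the family that binds organelle RNA, had 4.59 ± 0.22 in aap6 and 8.01 ± 1.80 in WT. The glycosyltransferase AT4G19900 had 6.46 ± 0.23 in aap6 and 4.74 ± 0.63 in WT. The kelch F-box protein AT4G39760, of the kind that selects proteins for degradation, had 4.64 ± 0.16 in aap6 and 4.65 ± 1.88 in WT. The first 10 genes carried 61.9% to 66.6% of the signal of the 60 in aap6 arrays and 62.4% to 70.2% in WT arrays.

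**Figure D1:**
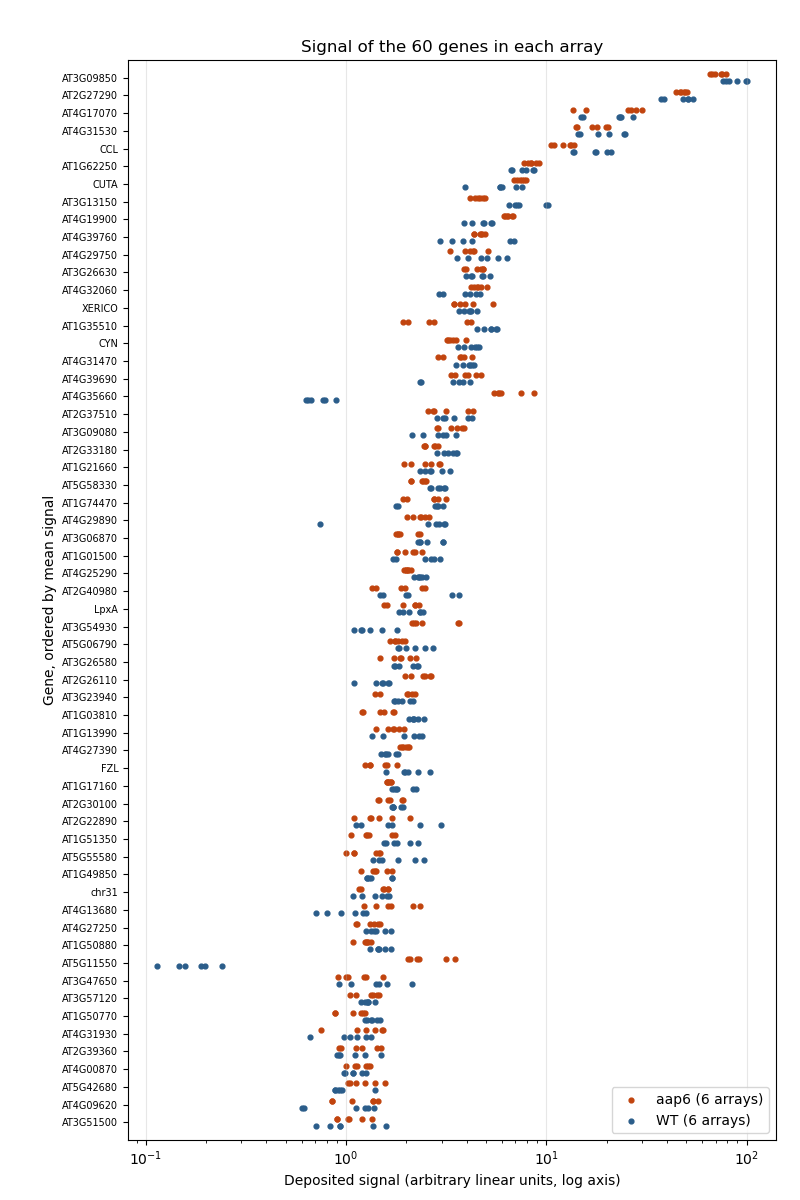
Deposited signal (x axis, arbitrary linear units on a log axis) of the 60 genes (y axis, ordered by mean signal) in the 6 aap6 arrays and the 6 WT arrays, 1 point per array. AT4G35660 and AT5G11550 are the genes whose aap6 points lie far to the right of their WT points, at 5.45 to 8.66 against 0.631 to 0.888 for AT4G35660 and at 2.04 to 3.48 against 0.114 to 0.240 for AT5G11550.

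The remaining 50 genes had mean signals between 1.06 and 4.55, and 28 of the 60 lay under 2. Gene tables named few of them. Only 7 of the 60 carried a symbol other than their locus tag. Roles of the others are protein families known for these loci, given as background, and 20 genes were left without a functional group. Groups were assigned by hand, so a gene left without one may still belong to a family listed below.

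The largest group was metabolism other than carbon and pigment metabolism, with 9 genes and mean signals of 1.37 to 18.4. Besides AT4G31530 and AT4G19900 it held CYN (3.82), the cyanase that breaks down cyanate, and AT1G35510 (4.07), an O-fucosyltransferase family protein. It also held LpxA (2.06), an acyltransferase related to the first enzyme of bacterial lipid A synthesis, and AT3G23940 (1.89), the dihydroxyacid dehydratase that serves synthesis of branched-chain amino acids. AT1G17160 (1.77) is a ribokinase, AT4G29890 (2.43) resembles choline monooxygenase, and AT4G27250 (1.37) has a Rossmann fold. For AT4G29890, WT array 2 read 0.739 while the other WT arrays read 2.56 to 3.11.

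The group of RNA processing and organelle gene expression was given 7 genes, with mean signals from 1.53 to 79.8. They were AT3G09850, AT3G13150, a further pentatricopeptide repeat gene AT3G26630 (4.50), AT4G29750 (4.55), which has the CRM domain of organelle intron splicing factors, AT2G37510 (3.36), which has an RNA recognition motif, AT1G03810 (1.85), which has a nucleic acid-binding OB fold, and AT5G55580 (1.53), the organelle protein mTERF9. Folding and proteolysis held 6 genes. They were AT4G17070, AT4G39760, XERICO (4.07), a RING-H2 protein known to raise abscisic acid levels, AT1G49850 (1.44), another RING-type protein, and the DnaJ-type chaperone genes AT1G21660 (2.62) and AT3G47650 (1.3).

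Signalling held 5 genes. AT4G32060 (4.21) is a calcium-binding protein of the mitochondrial MICU family, AT3G54930 (2.03) a regulatory B subunit of protein phosphatase 2A, and AT2G40980 (2.13), AT3G57120 (1.28) and AT2G39360 (1.14) are protein kinases. Protein interaction repeats were shared by AT3G09080 (3.12, WD40), AT3G26580 (1.94, TPR), AT1G51350 (1.62, armadillo) and AT5G11550 (1.36, armadillo). Redox and stress held CUTA, AT4G31470 (3.81), a secreted CAP-domain protein, and AT4G25290 (2.18), a photolyase-type protein of light-driven DNA repair. Carbon and pigment metabolism held AT5G58330 (2.61), the chloroplast NADP-dependent malate dehydrogenase, and AT1G74470 (2.55), the geranylgeranyl reductase that makes the phytol tail of chlorophyll. Organelle membranes were represented by AT4G39690 (3.65), which belongs to the complex that shapes the inner mitochondrial membrane, and FZL (1.77), a dynamin-like protein of thylakoid and chloroplast shape. The gene regulators were chr31 (1.42), a chromatin remodelling protein, and AT4G00870 (1.14), a basic helix-loop-helix factor.

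The 20 genes without a group had mean signals from 1.06 to 47.2. Besides AT2G27290, CCL, AT1G62250 and AT4G35660 (3.62), they were AT2G33180 (2.96), AT3G06870 (2.29), AT1G01500 (2.22), AT5G06790 (1.99), AT2G26110 (1.92), AT1G13990 (1.83), AT4G27390 (1.81) and AT2G30100 (1.72). Lower signals were those of AT2G22890 (1.66), AT4G13680 (1.37), AT1G50880 (1.36), AT1G50770 (1.22), AT5G42680, AT4G09620 and AT3G51500, and of AT4G31930 (1.17), which belongs to a mitochondrial glycoprotein family. The log2 change, aap6 minus WT, was above 0 in 8 of the 20 and below 0 in 12, and ran from -0.52 for AT1G50770 to 3.08 for AT4G35660.

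Ranks among the 3439 probes were narrow for the brightest genes and wider further down. AT3G09850 ranked 4 to 6 in aap6 arrays and 1 to 6 in WT arrays. CCL ranked 33 to 40 in aap6 and 27 to 35 in WT. Of the 60 genes, 51 ranked within the first 500 probes in all 12 arrays. AT4G35660 ranked 46 to 82 in aap6 and 448 to 606 in WT, and AT5G11550 ranked 150 to 232 in aap6 and 1312 to 2029 in WT. No rank of either gene was shared between the genotypes. Across the 60 genes, mean aap6 and mean WT signals had a Spearman correlation of 0.81, and across the 58 without AT4G35660 and AT5G11550 one of 0.91. These are correlations across genes, which are not independent, and all genes share the same arrays. The mean over these same arrays also chose the 60 genes, so both values are descriptions of the list without a test. AT4G35660 and AT5G11550 were left out because they differed between aap6 and WT in the tests below. The higher value of 0.91 therefore follows from that choice and is no separate result.

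The next question was which of these abundant transcripts differ between aap6 and WT. Tests used log2 values after quantile normalization, with limma across 2579 probes and Benjamini-Hochberg adjustment at 0.05. AT5G11550 and AT4G35660 rose in aap6 and the other 58 genes did not pass. Both entered the 60 only through their aap6 signal, and by the mean of the WT arrays neither would have, so the count of calls is a description of the list. By that mean AT4G13680 and AT5G42680 would not have entered either. By the mean of the aap6 arrays AT3G47650, AT1G50770, AT4G00870, AT4G09620 and AT3G51500 would not have entered. For these genes too the selection was not independent of the genotype. The share called was 3.33% of the 60 genes, against 8.88% of all probes tested (229 probes, 150 higher and 79 lower). Leaving out 1 averaged aap6 sample gave a share over all probes of 2.83% (the first sample), 2.25% (the second) or 3.61% (the third), and leaving out 1 averaged WT sample gave 5.54%, 3.45% or 6.48% in the same order. The same 2 of the 60 genes were called each time, so no contrast between the shares is read from these data. Higher calls were 5.82% and lower calls 3.06% of all probes. Among the 535 probes at least as bright as the dimmest of the 60 on the normalized scale, 5.79% were called. In a fit blocked on the 3 numbered sample pairs, 7 of the 60 genes were called (3 higher, 4 lower), against 464 of 2579 probes, or 18.0% (10.4% higher, 7.56% lower). With the 12 arrays taken as 12 samples, 20 of the 60 were called, beside 30.4% of all probes. With no floor, so that probes with a normalized 0 in any array were left out, the same 2 were called, beside 5.04%.

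**Figure D2:**
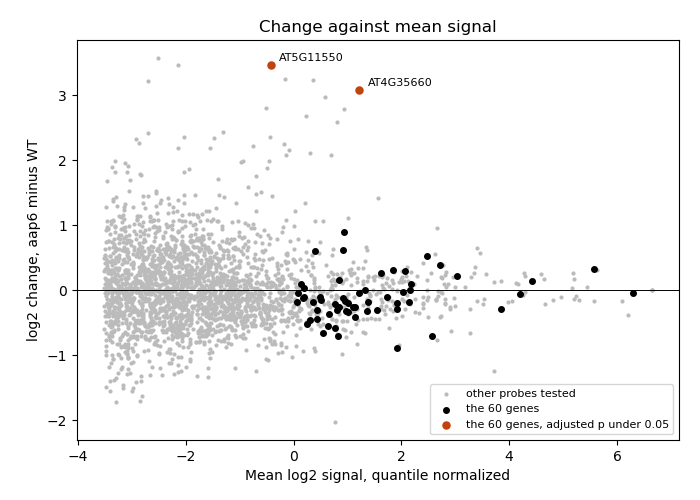
Log2 change, aap6 minus WT (y axis), against the mean log2 signal after quantile normalization (x axis) for all 2579 probes tested, with the 60 genes in black and those called in red. The 58 genes that did not pass lie between -0.88 and 0.89, and AT5G11550 and AT4G35660 lie at 3.46 and 3.08.

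AT5G11550 is an armadillo repeat protein, a fold used for binding other proteins. Its deposited signal was 2.06, 2.27 and 3.31 in the averaged aap6 samples, against 0.172, 0.135 and 0.214 in WT. The third aap6 sample was the highest, and the genotypes did not overlap. On the normalized log2 scale it averaged 1.3 ± 0.30 in aap6 and -2.16 ± 0.30 in WT (SD, n = 3 each), a change of 3.46 ± 0.24 (SE), or 11-fold higher (limma adjusted p = 0.000416). In the blocked fit the limma adjusted p was 0.0015. The WT signal lay near the WT array medians of 0.142 to 0.164, so the fold rests on a low WT value. The log2 change was 3.88 as deposited and 3.15 with median centring.

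AT4G35660 had 5.61, 5.84 and 8.08 in the averaged aap6 samples, against 0.719, 0.835 and 0.637 in WT. Again the third aap6 sample was the highest, and all aap6 values lay far above all WT values. Its normalized log2 signal was 2.76 ± 0.32 in aap6 and -0.33 ± 0.19 in WT (SD, n = 3 each), a change of 3.08 ± 0.22 (SE), or 8.47-fold higher (limma adjusted p = 0.000416). The blocked fit gave a limma adjusted p of 0.00217. Both genes were called in each of the 29 alternatives run, leaving out single arrays and averaged samples included. Both were among the 60 by the mean of the 6 aap6 arrays and neither by that of the 6 WT arrays, so their selection was not independent of this difference. By the mean of log2 values AT5G11550 would not have been among the 60.

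**Figure D3:**
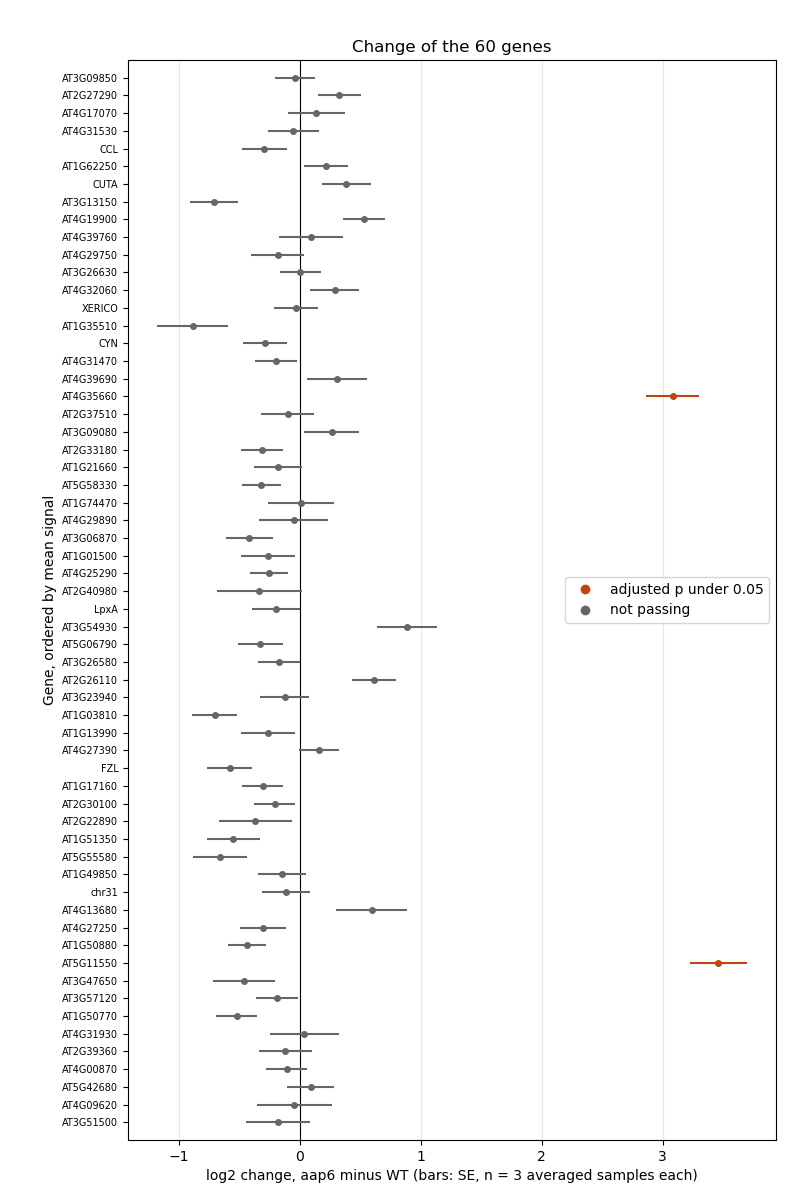
Log2 change, aap6 minus WT (x axis), with its SE for each of the 60 genes (y axis, ordered by mean signal), from n = 3 averaged samples per genotype. Points of AT4G35660 and AT5G11550 stand beyond 3 and the remaining 58 points between -0.88 and 0.89.

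Among the 58 genes that did not pass, changes ran from -0.88 to 0.89 and limma adjusted p-values from 0.0584 to 0.989. In this fit, which has no block, the median half-width of their 95% intervals was 0.46 on the log2 scale. For 46 of them the interval lay within a 2-fold change in either direction, and for 12 it reached beyond. Those 12 were AT3G13150, AT1G35510, AT2G40980, AT3G54930, AT2G26110, AT1G03810, FZL, AT2G22890, AT1G51350, AT5G55580, AT4G13680 and AT3G47650. At 22 of the 60 genes (36.7%) the normalized aap6 samples all lay on one side of the WT samples, 8 with higher and 14 with lower aap6 values, against 34.0% of all probes tested.

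Of the genes that did not pass, AT1G03810 had the smallest adjusted p. Its deposited signal was 1.21, 1.72 and 1.51 in aap6, against 2.13, 2.38 and 2.16 in WT. The highest aap6 sample lay below the lowest WT sample. The log2 change was -0.70 ± 0.19 (SE), with a limma adjusted p of 0.0584, and 0.0353 in the blocked fit.

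AT3G54930, the phosphatase 2A subunit, had 2.19, 2.30 and 3.63 in aap6, against 1.15, 1.25 and 1.65 in WT. The third sample was the highest in each genotype, and the genotypes did not overlap. The log2 change was 0.89 ± 0.24 (SE), with a limma adjusted p of 0.0632, and 0.0181 in the blocked fit.

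The pentatricopeptide repeat gene AT3G13150 had 4.35, 4.62 and 4.78 in aap6, against 10.1, 7.12 and 6.82 in WT. The aap6 samples lay close together and below all WT samples. The log2 change was -0.71 ± 0.20 (SE), with a limma adjusted p of 0.065, and 0.0484 in the blocked fit. AT2G26110 had 2.05, 2.54 and 2.54 in aap6, against 1.56, 1.58 and 1.25 in WT, without overlap. Its log2 change was 0.62 ± 0.18 (SE), and it did not pass with the block either (limma adjusted p = 0.0726, and 0.0566 with the block). As deposited, without normalization, AT2G26110 was called higher (limma adjusted p = 0.0276), and with median centring its change was -0.027.

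**Figure D4:**
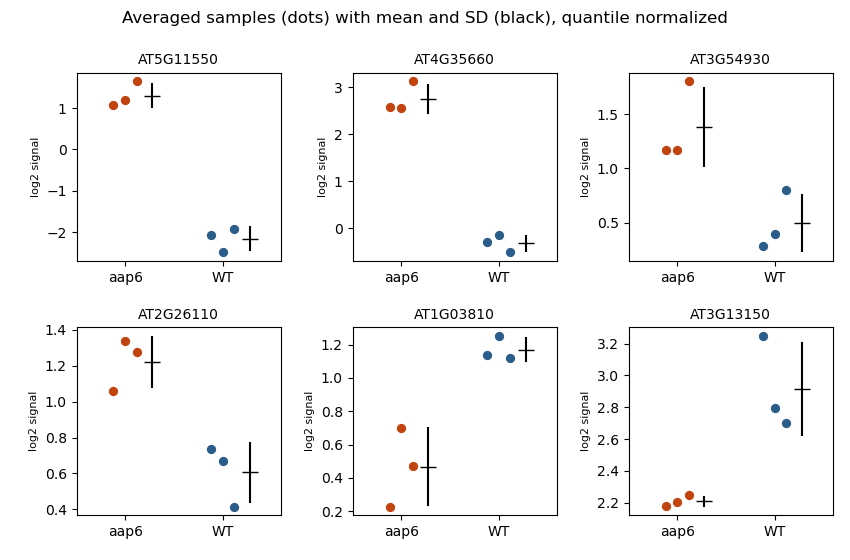
Normalized log2 signal (y axis, a scale of its own in each panel) of the averaged aap6 and WT samples, 3 points per genotype, with mean and SD in black, for AT5G11550, AT4G35660, AT3G54930, AT2G26110, AT1G03810 and AT3G13150. The genotypes do not overlap in any of the 6 panels, with changes of 3.46, 3.08, 0.89, 0.62, -0.70 and -0.71.

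AT1G35510 and AT5G55580, singled out after their values were seen, were also called, as lower, in the blocked fit. AT1G35510 had 2.66, 4.11 and 1.98 in aap6, against 5.65, 5.31 and 4.68 in WT, a log2 change of -0.88 ± 0.29 (SE). The aap6 samples were spread widely and all lay below WT. Its limma adjusted p was 0.0974, and 0.0482 with the block. AT5G55580 (mTERF9) had 1.05, 1.25 and 1.47 in aap6, against 1.44, 1.64 and 2.33 in WT, so that 1 aap6 sample overlapped WT on the deposited scale. Its log2 change was -0.66 ± 0.22 (SE), with a limma adjusted p of 0.1, and 0.0356 with the block.

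None of the 10 brightest genes passed in the reported fit, while AT3G13150 passed in the blocked fit (limma adjusted p = 0.0484). Their log2 changes were -0.036 ± 0.17 (SE) for AT3G09850, 0.33 ± 0.18 for AT2G27290, 0.14 ± 0.24 for AT4G17070, -0.052 ± 0.21 for AT4G31530 and -0.29 ± 0.18 for CCL. Those of the next 5 were 0.22 ± 0.18 for AT1G62250, 0.38 ± 0.20 for CUTA, -0.71 for AT3G13150, 0.53 ± 0.17 for AT4G19900 and 0.093 ± 0.26 for AT4G39760. For AT4G19900, a limma adjusted p of 0.0963 came with no overlap between the genotypes. After quantile normalization each of these intervals except that of AT3G13150 lay within a 2-fold change. With median centring 4 of the 10 genes were called lower, AT3G09850 (-1.01), CCL (-1.21), AT4G31530 (-0.89) and AT3G13150 (-1.51), with limma adjusted p-values of 0.0124, 0.0117, 0.0386 and 0.00694.

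By role, the called genes were 1 of the 4 with interaction repeats (AT5G11550) and 1 of the 20 without a group (AT4G35660). In RNA processing and organelle gene expression 0 of 7 passed, 6 of the 7 changes were below 0, and the median log2 change was -0.18. In the blocked fit 3 of these 7 were lower (AT3G13150, AT1G03810 and AT5G55580), as was 1 of the 9 genes of other metabolism (AT1G35510), and 1 of the 5 signalling genes was higher (AT3G54930). Over all probes that fit called 7.56% lower and 10.4% higher, and no group was tested against these shares. In other metabolism 0 of 9 passed and 8 of 9 changes were below 0, with a median of -0.20 and a range from -0.88 (AT1G35510) to 0.53 (AT4G19900). In folding and proteolysis 0 of 6 passed, with a median of -0.087, and in signalling 0 of 5, with a median of -0.12. None of the redox and stress, carbon and pigment, organelle membrane and gene regulator genes passed. In the carbon and pigment pair, AT5G58330 had a change of -0.32 ± 0.16 (SE) and AT1G74470 one of 0.0079 ± 0.27. In the membrane pair, FZL had -0.58 ± 0.18 and AT4G39690 had 0.31 ± 0.25. Over all 60 genes 41 changes were below 0 and the median was -0.16, beside a median of -0.030 over all probes tested and -0.090 over the 535 bright probes. Changes above 0 numbered 19 of the 60 genes, 1227 of the 2579 probes tested and 229 of the 535 bright probes. After quantile normalization the bright probes as a whole thus also leaned below 0, while as deposited their median was 0.0099.

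The direction of small changes depended on the scaling. As deposited, the median log2 change was -0.093 for the 60 genes, 0.0099 for the 535 bright probes and 0.50 for all probes tested. After quantile normalization the same medians were -0.16, -0.090 and -0.030, and with each array centred on its median they were -0.82, -0.72 and -0.23. Calls followed the scaling. As deposited, 7 of the 60 genes were called (4 higher, 3 lower), beside 34.9% of all probes (34.1% higher, 0.775% lower). Besides AT5G11550 and AT4G35660, the higher ones were AT3G54930 and AT2G26110 (limma adjusted p = 0.0223 and 0.0276). The lower ones were AT3G13150, AT1G35510 and AT1G03810 (limma adjusted p = 0.0232, 0.0394 and 0.0486). With median centring 38 were called (2 higher, 36 lower), beside 27.3% of all probes (7.75% higher, 19.6% lower). AT5G11550 had changes of 3.88 as deposited and 3.15 with median centring, and AT4G35660 had 3.15 and 2.42. Both were called under each scaling.

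**Figure D5:**
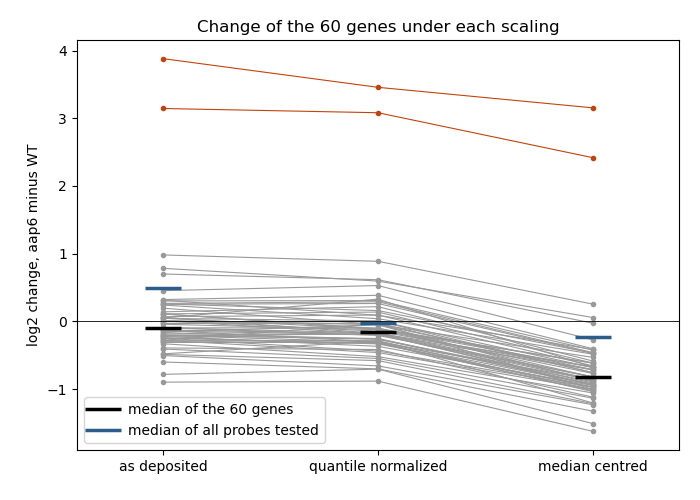
Log2 change, aap6 minus WT (y axis), of each of the 60 genes under 3 scalings (x axis), with the median of the 60 genes in black and of all probes tested in blue; lines join the values of a gene and red marks AT5G11550 and AT4G35660. The median of the 60 genes is -0.093 as deposited, -0.16 after quantile normalization and -0.82 with median centring, while the red genes stay above 2.4.

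The genes were unevenly spread over the chromosomes. Chromosome 4 held 18 of the 60 (30%), beside 17.4% of the named genes, and chromosome 5 held 5 (8.33%), beside 20.8%. No test was made of this spread. In the TAIR10.1 gene order, 8 neighbouring pairs of members lay within 20 protein-coding genes of each other. No such count was made for the other named genes, so these pairs are a description without a background. The closest were AT4G31470 and AT4G31530, 6 genes apart, with changes of -0.20 and -0.052, then AT1G50770 and AT1G50880, 7 apart, with -0.52 and -0.44, and AT3G26580 and AT3G26630, also 7 apart, with -0.17 and 0.0055. CCL lay 11 genes beyond AT3G26630. None of these genes passed.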

How the data were processed

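The deposited table holds 1 linear intensity per probe and sample. How the authors made these intensities, and on which kind of array, is not stated in the labels. Their scale and centring are therefore unknown. The values run upward from 0 to about 100. Probes were named from the platform's annotation, and symbols were brought up to date by gene ID in the TAIR10.1 table, where all 60 genes were found. Of 3439 probes, 692 had 1 name, 870 several and 1877 none.

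Values were quantile normalized, values under 0.0505 (the 10th percentile of nonzero values) were set to it, and log2 was taken. The same percentile of all values is 0. The alternative that used it left out probes with a normalized 0 in any array, since 0 has no logarithm. The 25% of probes with the lowest mean were left out, leaving 2579. Array pairs were averaged on the log2 scale, and limma 3.58.1 in R 4.3.3 (lmFit, eBayes) tested aap6 minus WT, 3 against 3. The fit was tested on simulated data. Deviations of same-numbered arrays from their genotype means correlated at 0.426 to 0.552, and those of averaged pairs at 0.403 to 0.506. The numbers were therefore taken to pair the samples in the blocked fit, from the data and not from the labels. The reported fit left this pairing out. Its SEs, intervals and adjusted p-values are those of unpaired samples, and results of the blocked fit are given beside them.

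Members, groups and settings were chosen with earlier results of these data known. Genotype signals and log2 changes were given for the 10 brightest genes, all that passed, and the 4 not passing with the smallest adjusted p. Of these 4, 1 (AT3G13150) is also among the 10. Among the 10, AT1G62250, CUTA, AT4G19900 and AT4G39760 were given as mean and SD only. Adjusted p-values of the reported fit were printed within the 10 for AT3G13150 and AT4G19900 alone. AT1G35510 and AT5G55580 were added after their values were seen, because the blocked fit called them. Functional groups follow known protein families, and the groups of interaction repeats and organelle membranes were added when the members were read. Alternatives covered scaling, floor, filter, averaging, replicate blocks, variance model, the upper bound and leaving out arrays or pairs.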

Additional observations from a re-analysis of the deposited data

How the results depend on the processing

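The 2 calls among the 60 genes became 7 (11.7%) without normalization and 38 (63.3%) with median centring, beside 34.9% and 27.3% of all probes. They became 6 (10%) over the brighter 50% of probes, beside 12.7% of those probes. With trend and robust eBayes they became 6 (10%), beside 11.3% of all probes. With 12 arrays as samples they became 20 (33.3%), beside 30.4%, and with a replicate block added 25 (41.7%), beside 40.6%. Averaged pairs and a replicate block gave 7 (11.7%), beside 18%. All of these included AT5G11550 and AT4G35660. Without the filter on dim probes AT1G50880 (-0.44) was called as well, which made 3 of the 60 (5%), beside 6.05% of all probes. The count over all probes, 229, became 900 without normalization, 705 with median centring, 130 with no floor, 783 with 12 arrays, 1046 with 12 arrays and a replicate block and 464 with averaged pairs and a replicate block. Leaving out arrays or pairs gave 58 to 227 calls over all probes, lowest without aap6 arrays 3 and 4, and 2 among the 60 genes throughout. Without aap6 arrays 1 and 2 it was 73, without aap6 arrays 5 and 6 it was 93, without WT arrays 3 and 4 it was 89, and without WT arrays 1 and 2 it was 143. The median change of the 60 genes, -0.16, was -0.093 without normalization, -0.82 with median centring and -0.21 to -0.11 over the leave-outs. By the median of the 12 values or the mean log2, 58 of the 60 genes were chosen again, and by the mean of normalized values all 60. The mean log2 left out AT5G11550, 1 of the 2 called genes, and AT3G51500. The cause of these shifts was not tested.

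Signs turned only for genes not called in the reported fit. With median centring they turned for AT2G27290 (-0.68), AT4G17070 (-0.62), AT1G62250 (-0.59), CUTA (-0.40), AT4G19900 (-0.27), AT4G39760 (-0.66), AT3G26630 (-0.76), AT4G32060 (-0.46), AT4G39690 (-0.42), AT3G09080 (-0.47), AT1G74470 (-0.68), AT2G26110 (-0.027), AT4G27390 (-0.47), AT4G31930 (-0.49) and AT5G42680 (-0.42). Without normalization they turned for AT3G26630 (-0.031), AT4G29890 (0.012), AT1G49850 (0.015), chr31 (0.046), AT3G57120 (0.0090), AT2G39360 (0.11), AT4G00870 (0.11), AT4G09620 (0.19) and AT3G51500 (0.058). Over the leave-outs the changes ran from -0.13 to 0.056 for AT3G09850, -0.017 to 0.32 for AT4G17070, -0.18 to 0.11 for AT4G31530, -0.13 to 0.37 for AT4G39760, -0.074 to 0.084 for AT3G26630, -0.16 to 0.052 for XERICO, -0.26 to 0.036 for AT2G37510 and -0.20 to 0.23 for AT1G74470. They ran from -0.36 to 0.26 for AT4G29890, -0.22 to 0.041 for AT3G23940, -0.23 to 0.010 for chr31, -0.16 to 0.28 for AT4G31930, -0.27 to 0.027 for AT2G39360, -0.040 to 0.20 for AT5G42680, -0.36 to 0.14 for AT4G09620 and -0.38 to 0.069 for AT3G51500.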
